A study of Mus musculus with 6 samples.

Results

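Genes that serve sperm and the testis were followed in mouse cells derived from embryonic stem cells. The 10 genes are Spink2, Prss39, Acrv1, Tex101, Hspa2, Ldhc, Pgk2, Odf1, Prm1 and Prm2, and they were chosen on measured values, with the difference between treatments in these arrays known. Their levels and differences are therefore given as a description with no test. The 10 genes have 14 probes on the array, of 18753 named genes and 41174 probes in all, and every probe whose RefSeq identifier belongs to 1 of the 10 symbols is reported.

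The study treated cells for 24 h with TSA (trichostatin A, an inhibitor of histone deacetylases, the enzymes that take acetyl groups off histone tails) or with DMSO, the solvent. Both groups were embryonic stem cells of strain 129/Ola differentiated to day 3 on gelatin in serum-free N2B27 medium, a neural differentiation medium, and the dose of TSA is not in the labels. Each group has 3 samples, labelled as independent experiments, and each sample was hybridised to 1 single-colour Agilent array. A replicate number stands for 1 slide holding a TSA array and a DMSO array, and TSA lay at position 4 and DMSO at position 3 of every slide, so effects of place on the slide and of treatment cannot be told apart.

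Sperm form in the testis through meiosis and then spermiogenesis, in which the round spermatid builds an acrosome and a flagellum and repacks its DNA. The acrosome is a secretory vesicle over the sperm nucleus that holds proteases and their inhibitors. Energy metabolism runs in part on germ-cell forms of common enzymes, and histones are replaced first by transition proteins and then by protamines. Many of these genes are largely confined to the male germ line, and acetylation of histones precedes their removal in the spermatid.

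Markers of the cells were checked first. All 11 markers of day 3 cells that have a probe (of pluripotent, epiblast and neural cells) were above background on all 6 arrays, Pou5f1 and Sox1 among them. In the test 0 of the 11 passed, where 1.36% of all tested genes passed as higher and 0.0551% as lower. Pax6, a neural factor with the smallest adjusted p of the list, differed by -1.21 ± 0.24 (limma adjusted p = 0.0816). Pax6, Sox2 (-0.43 ± 0.27) and Nes (-0.38 ± 0.20) had all TSA arrays below all DMSO arrays. The share of all tested genes that did so is not given here, so nothing is read from these 3. Of the other neural markers, Zfp521 differed by -0.43 ± 0.29 and Sox1 by 0.25 ± 0.35, and in both the groups overlapped. The mean was higher with TSA in 4 of the 11. Of 5 germ cell markers, Nanos2 was above background on no array. Ddx4, an RNA helicase of germ cells, had levels of 0.57, -1.79 and 0.46 in TSA samples and 0.70, -0.17 and 0.63 in DMSO samples, so it was present in both groups. Nanos3 and Dnd1 were also above background on all 6 arrays and Dazl on 5, and none of these 4 passed the test. Among the chosen genes, 6 of the 10 genes were above background on all 6 arrays, DMSO arrays included, 1 (Prss39) on the 3 TSA arrays only, and 3 (Acrv1, Pgk2 and Odf1) on no array. In RNA from a whole culture, more cells of a type and more RNA per cell cannot be told apart.

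The DNA before the starts of these genes differs in CpG, the dinucleotide whose cytosine can be methylated in mammals. RefSeq windows of 250 bases before to 50 after a start (build GRCm38.p6) matched 9 of the 10 genes, and the most upstream was taken of 3 starts of Spink2 and 2 of Ldhc. The runs of 7 genes are printed: the 4 with all TSA arrays above all DMSO arrays, Ldhc and Prm1, whose groups overlapped, and Acrv1, which was not above background. Prm1 and Acrv1 have the lowest CpG ratios of the 9 genes and Ldhc the highest among those that did not separate. Each run is the 250 bases before the start, 5′ to 3′ on the gene's strand, with CpG dinucleotides in capitals. Spink2 lies at chr5:77211472-77211721 (minus strand), Prss39 at chr1:34498162-34498411 (plus), Tex101 at chr7:24672051-24672300 (minus), Hspa2 at chr12:76404120-76404369 (plus), Ldhc at chr7:46861013-46861262 (plus), Acrv1 at chr9:36692970-36693219 (plus) and Prm1 at chr16:10796824-10797073 (minus).
Spink2: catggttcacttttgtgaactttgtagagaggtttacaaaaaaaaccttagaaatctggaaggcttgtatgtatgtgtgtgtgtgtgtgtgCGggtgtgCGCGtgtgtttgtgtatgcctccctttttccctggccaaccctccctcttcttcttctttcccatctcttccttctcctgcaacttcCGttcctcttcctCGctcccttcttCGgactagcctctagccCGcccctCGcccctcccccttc
Prss39: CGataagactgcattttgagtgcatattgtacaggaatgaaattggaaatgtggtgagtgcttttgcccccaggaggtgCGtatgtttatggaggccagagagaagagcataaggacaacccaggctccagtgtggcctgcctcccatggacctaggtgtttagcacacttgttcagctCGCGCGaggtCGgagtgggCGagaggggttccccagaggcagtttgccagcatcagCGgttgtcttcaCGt
Tex101: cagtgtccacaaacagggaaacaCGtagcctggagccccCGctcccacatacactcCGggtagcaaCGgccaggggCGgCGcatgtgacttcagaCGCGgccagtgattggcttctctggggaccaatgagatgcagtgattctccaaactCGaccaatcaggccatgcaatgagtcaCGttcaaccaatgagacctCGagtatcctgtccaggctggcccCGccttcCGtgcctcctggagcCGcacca
Hspa2: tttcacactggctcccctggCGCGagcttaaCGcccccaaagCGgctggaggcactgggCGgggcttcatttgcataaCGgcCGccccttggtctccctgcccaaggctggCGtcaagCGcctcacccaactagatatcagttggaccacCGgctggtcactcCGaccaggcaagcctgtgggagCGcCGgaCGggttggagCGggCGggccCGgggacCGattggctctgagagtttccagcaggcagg
Ldhc: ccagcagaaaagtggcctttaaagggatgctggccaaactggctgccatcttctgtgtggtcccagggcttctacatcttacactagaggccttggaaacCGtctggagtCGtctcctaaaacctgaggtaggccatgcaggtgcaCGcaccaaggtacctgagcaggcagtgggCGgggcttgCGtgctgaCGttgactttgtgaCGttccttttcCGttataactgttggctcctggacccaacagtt
Acrv1: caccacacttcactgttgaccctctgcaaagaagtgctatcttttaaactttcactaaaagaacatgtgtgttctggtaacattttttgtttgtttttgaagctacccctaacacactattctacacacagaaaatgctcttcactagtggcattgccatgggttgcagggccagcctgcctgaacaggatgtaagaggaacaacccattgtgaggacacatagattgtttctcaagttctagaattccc
Prm1: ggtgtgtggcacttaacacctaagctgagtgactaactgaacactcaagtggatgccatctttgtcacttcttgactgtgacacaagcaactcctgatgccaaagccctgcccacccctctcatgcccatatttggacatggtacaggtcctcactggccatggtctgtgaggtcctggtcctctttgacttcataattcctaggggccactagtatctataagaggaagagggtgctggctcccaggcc
The printed runs hold 8 CpGs for Spink2, 9 for Prss39, 14 for Tex101 and 18 for Hspa2, against 8 for Ldhc, 0 for Acrv1 and 0 for Prm1.

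A level below is log2 of an array's processed signal minus the 75th percentile of that array, so a probe at 0 is as bright as that percentile and each unit is a doubling. Levels of different probes are not comparable with each other, since probes differ in how strongly they bind. The processed signal at the 75th percentile was 670, 311 and 885 in TSA samples and 632, 654 and 926 in DMSO samples, in the order of replicates 1, 2 and 3. TSA replicate 2 was thus the dimmest array, and it stood apart from the rest. Its log2 signals correlated at 0.931 and 0.939 with those of the other TSA arrays, against 0.984 to 0.990 for every other pair within a group. Over all tested genes its median deviation from the mean of the other 2 TSA arrays was 0.37, and over the 7 tested sperm and testis genes 0.43. Its lowest level well above background was -4.86, against -6.57 to -5.67 on the other 5 arrays. Results that rest on that array are given with and without it below.

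Of the 3 acrosomal genes, Spink2 was measured in both groups, Prss39 in TSA samples only and Acrv1 in neither. Spink2, a Kazal-type serine protease inhibitor that holds acrosomal proteases in check, had levels of 0.62, 0.13 and 0.28 in TSA samples and -2.54, -3.06 and -2.40 in DMSO samples. It was above background on all 6 arrays, and each TSA level lay far above each DMSO level. The means were 0.34 ± 0.25 with TSA and -2.67 ± 0.35 with DMSO (SD, n = 3 each), a difference of 3.01 ± 0.26 on the log2 scale (moderated SE), or 8.08-fold. Within slides the difference was 2.69 to 3.19. It was 2.17 after normexp correction and 2.76 in the authors' deposited table.

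Prss39, a trypsin-like protease of the acrosome, had levels of -4.51, -4.78 and -5.04 in TSA samples and -7.95, -7.81 and -7.43 in DMSO samples. It was well above background on 3 of 3 TSA arrays and on 0 of 3 DMSO arrays, so the DMSO levels are not measurements. The processed signal was 29.5, 11.3 and 26.8 in TSA samples and 2.56, 2.92 and 5.35 in DMSO samples, so the TSA signals too were dim. The fitted difference was 2.95 ± 0.25. On the processed signal its TSA mean was 2.47-fold above the mean of the lowest levels that the DMSO arrays placed well above background. Some probes brighter than such a lowest level were not called above background, so the 2.47-fold is no strict bound. The size depended on the background correction, with a difference of 0.35 after normexp correction and 1.07 in the authors' deposited table. Both are smaller, and the 2.47-fold holds for the processed signal only. Acrv1, the acrosomal vesicle protein SP-10, was not well above background on any array, with signals of 2.74 to 3.50 in TSA samples and 3.50 to 5.43 in DMSO samples.

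Tex101, a glycolipid-anchored protein of the germ cell surface that sperm need to pass into the oviduct, had levels of -1.70, -1.51 and -2.20 in TSA samples and -3.61, -3.56 and -3.73 in DMSO samples. All 6 arrays measured it, and the groups did not overlap. The difference was 1.83 ± 0.24, or 3.55-fold, and 1.53 to 2.05 within slides. It was 0.93 after normexp correction and 1.54 in the authors' deposited table.

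Hspa2, the testis member of the 70-kDa heat shock proteins, without which spermatocytes stop in meiosis, has 2 probes. The brighter one had levels of 0.17, 0.52 and 0.03 in TSA samples and -1.14, -0.77 and -0.87 in DMSO samples. The other one had -1.68, -1.73 and -1.79 in TSA samples and -2.81, -2.91 and -2.74 in DMSO samples. On both probes each TSA array stood above each DMSO array. The differences were 1.17 ± 0.23 and 1.09 ± 0.18, or 2.25-fold and 2.12-fold, so the probes gave nearly one value.

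The enzymes of sperm energy metabolism separated the groups less or were not seen. Ldhc, the lactate dehydrogenase of testis and sperm, had levels of -0.67, -0.34 and -0.59 in TSA samples and -1.31, -1.51 and -0.67 in DMSO samples. Its highest DMSO array reached the lowest TSA array, so the groups met, and the difference was 0.63 ± 0.28, with 0.07 to 1.16 within slides. Pgk2, an intronless copy of phosphoglycerate kinase that replaces X-linked Pgk1 in meiosis, was not well above background on any array, with signals of 3.26 to 7.26 in TSA samples and 2.31 to 4.41 in DMSO samples. Odf1, a core protein of the outer dense fibres of the flagellum, was likewise not well above background on any array with either of its 2 probes, at 2.32 to 3.57 in TSA samples and 2.11 to 2.96 in DMSO samples.

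The protamines, small arginine-rich proteins that condense sperm DNA, overlapped between groups. The brightest Prm1 probe had levels of -2.49, -0.39 and -1.78 in TSA samples and -2.86, -1.92 and -2.25 in DMSO samples. Its highest level came from the dim TSA replicate 2, and its difference was 0.79 ± 0.55. A second Prm1 probe had -3.13, -2.48 and -3.53 in TSA samples and -3.06, -3.16 and -3.54 in DMSO samples, a difference of 0.21 ± 0.32, and the third probe was not well above background on any array. Prm2 had levels of -3.56, -2.34 and -4.11 in TSA samples and -3.59, -3.01 and -4.03 in DMSO samples. Replicate 2 was the highest of both groups, and the difference was 0.21 ± 0.50. Without TSA replicate 2 the differences were 0.20 for the brightest Prm1 probe and -0.29 for Prm2.

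**Figure D1:**
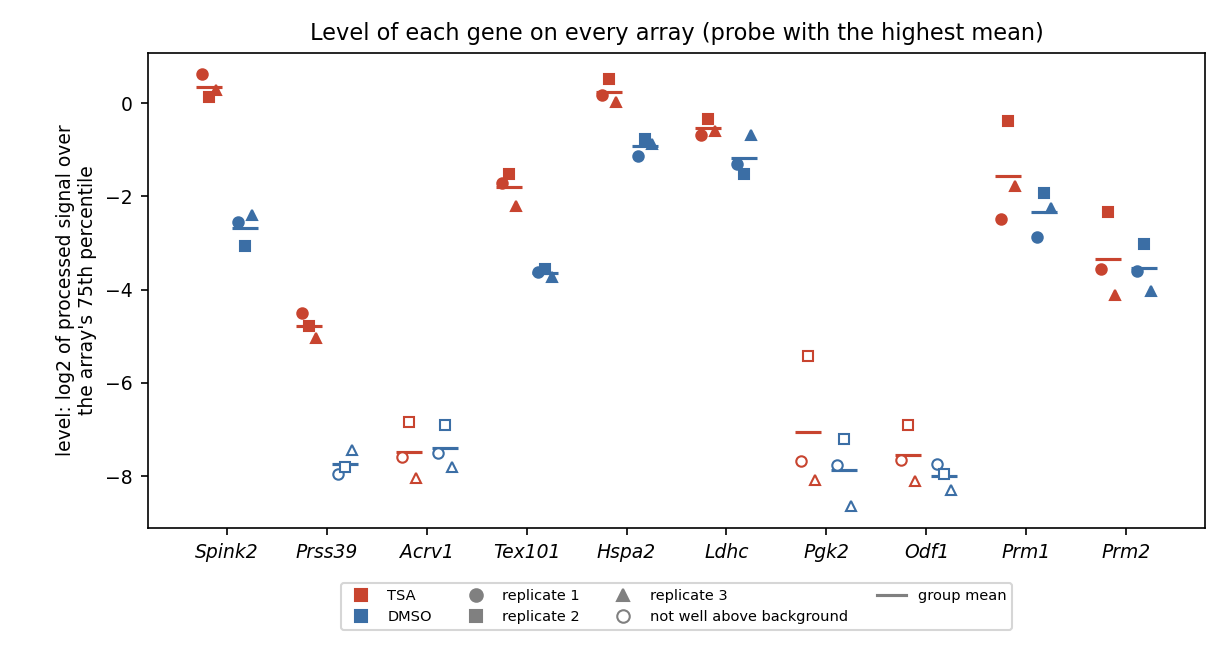
Level of each of the 10 genes by its probe with the highest mean (log2, relative to the 75th percentile of the array, vertical axis) on the 3 TSA arrays and the 3 DMSO arrays, with open symbols where a probe was not well above background. Spink2, Prss39, Tex101 and Hspa2 show all TSA arrays above all DMSO arrays, and Acrv1, Pgk2 and Odf1, which no array measured, lie near the foot of the scale.

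**Figure D2:**
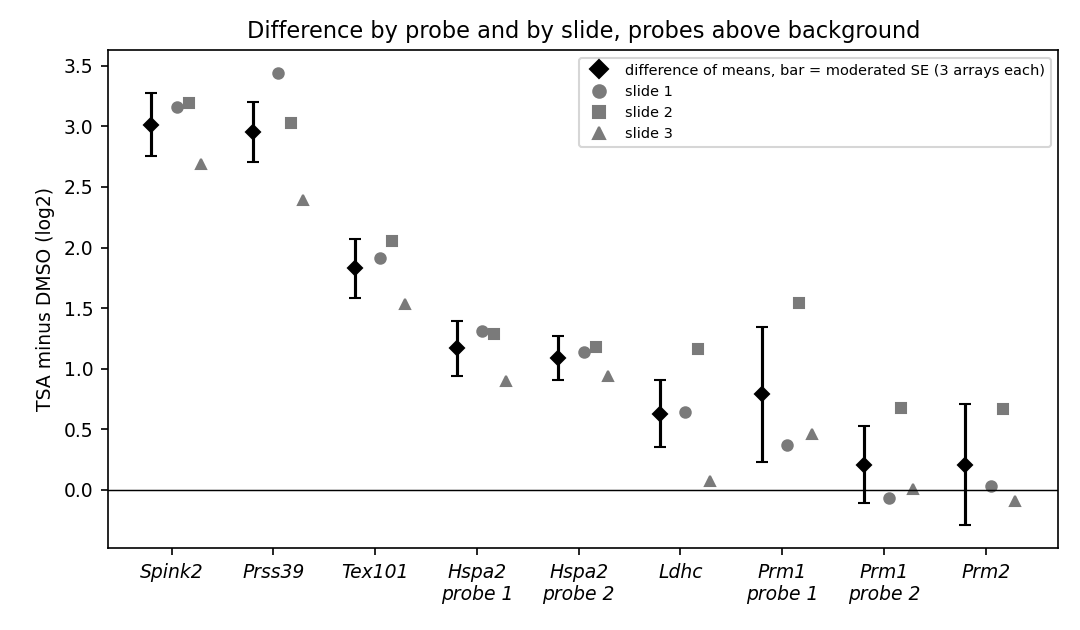
Difference of each tested probe, TSA minus DMSO (log2), with its moderated standard error and the value within each slide. Spink2 lies at 3.01 and Tex101 at 1.83, and the value of Prss39 rests on DMSO arrays where it was not above background. The protamine probes lie at 0.21 to 0.79 with errors of 0.32 to 0.55.

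Of the 7 genes tested, 4 had all TSA arrays above all DMSO arrays, and over all 14529 tested genes 16.4% did. In the limma fit over all 28158 tested probes, 3 of the 7 (Spink2, Prss39 and Tex101) were past the adjusted threshold of 0.05 and higher with TSA, where 1.36% of all tested genes were, and 0 were lower, where 0.0551% were. These contrasts chose the genes, so nothing is read from either count. Prss39 met the filter on dim probes through its TSA arrays only, so its call rests on DMSO values not above background. The same 3 were past the threshold with the replicate number as a block, where 3.19% of all tested genes were higher. The median difference of the 7 was 1.17, against 0.08 over all tested genes. Leaving out any 1 array other than TSA replicate 2 left 0 of the 7 past the threshold, and 0 of all probes. Of the settings that keep all 6 arrays, normexp correction and the authors' deposited table ended the call for Prss39 and Tex101, and quantile normalization, median centring and no filter on dim probes that for Tex101. Prss39 was also not called where a probe had to be above background on all 6 arrays, which it was not. Hspa2 was past the threshold without TSA replicate 2 and with the mean over its probes, which made 4 of the 7 in each. The fit on means adjusted p over genes, and so over fewer tests than the fits on probes. The differences moved less with the arrays left out: over those fits and the one without TSA replicate 2, Spink2 differed by 2.82 to 3.15, Prss39 by 2.82 to 3.10, Tex101 by 1.68 to 2.03 and Hspa2 by 1.03 to 1.27.

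The CpG ratio (CpGs observed over those expected from the C and G content, in the 300-base window) was 0.70 for Tex101, 0.67 for Spink2, 0.66 for Hspa2 and 0.51 for Prss39. It was 0.42 for Ldhc, 0.29 for Pgk2, 0.14 for Prm2, 0.07 for Acrv1 and 0.05 for Prm1, and the median over all 32851 windows was 0.384. The 4 genes with separate groups have the 4 highest ratios of the 9, and the 2 with a window and no signal, Pgk2 and Acrv1, lie under the median. Prss39 is among the 4 through DMSO values not above background. This is a description of 9 genes chosen on their differences, with no test. The genes were grouped by the same differences that chose them, and ratios of other genes by their difference are not given. A link between CpG and the response to TSA was therefore not tested, and none is read from these ratios.

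**Figure D3:**
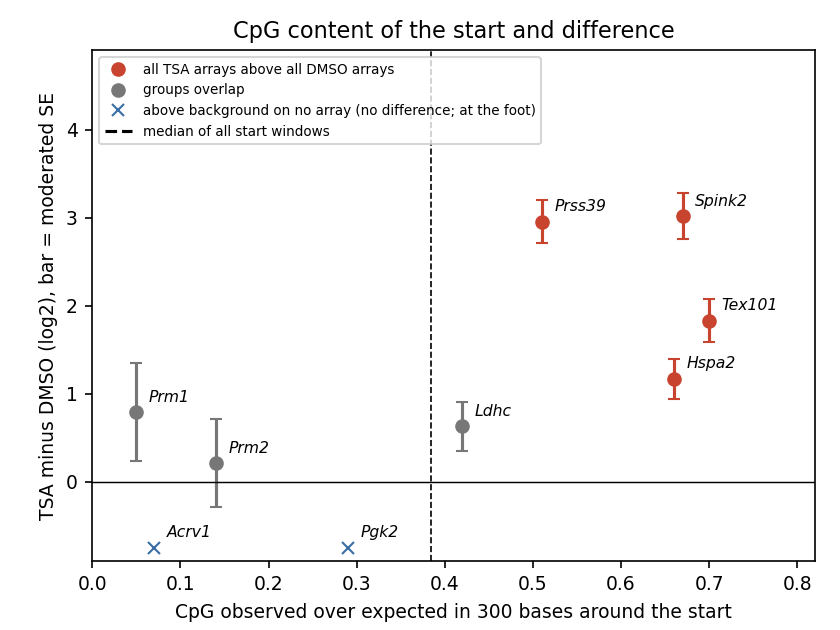
CpG observed over expected in the 300 bases around the start (horizontal axis) and TSA minus DMSO difference (log2, vertical axis, moderated SE) of the 9 genes with a RefSeq window, with crosses at the foot for genes that no array measured. Tex101, Spink2, Hspa2 and Prss39 lie right of the dashed line at the median of all windows, with Ldhc nearest to it.

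Short motifs were searched on both strands of the same windows. The GC box GGGCGG was in 6 of the 9 windows, Spink2, Prss39, Tex101, Hspa2, Ldhc and Prm2, and in 35.7% of all windows. The cyclic AMP response element TGACGTCA, a site through which spermatid genes are known to be switched on, was in 0 of the 9 and in 1.79% of all windows. Its first bases TGACG, which any full element also holds, were in 2 of the 9, against 20.8% of all windows, at positions -61 to -57 and -47 to -43 of Ldhc and once in Hspa2. TATAAA was in 1 window, Prm2, at -31 to -26 on the reverse strand, against 13.6% of all windows. The E-box CACGTG spanned the start of Prss39, at -5 to 1, against 7.15% of all windows, and GCGGGAA was in 0 of the 9 and 4.6% of all. A match is a match of letters only.

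Somatic counterparts of the metabolic and chaperone genes were set beside them. Ldha, the muscle-type lactate dehydrogenase, differed by 0.13 ± 0.33, Ldhb, the heart type, by 0.33 ± 0.23, Pgk1 by -0.24 ± 0.30 and Hspa8, the constitutive 70-kDa chaperone, by 0.06 ± 0.31, and none passed the test. The inducible 70-kDa chaperones Hspa1a and Hspa1b had all TSA arrays above all DMSO arrays, as Hspa2 did, with differences of 1.05 ± 0.31 and 1.04 ± 0.28 (limma adjusted p = 0.222 and 0.187), and did not pass either. Of the 14 genes of the list, all tested, 1 passed (7.14%, against 1.36% of all tested genes). It was H1f0, a linker histone of non-dividing cells, and so no counterpart of the metabolic or chaperone genes. Its levels were 3.96, 3.87 and 3.68 in TSA samples and 2.37, 2.20 and 2.24 in DMSO samples, a rise of 1.57 ± 0.19 (limma adjusted p = 0.0309). The median over the 14 was 0.09, close to the 0.08 of all tested genes.

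Other genes of sperm and testis were taken from 10 lists by role, with the 10 genes above left out. Of 324 genes listed, 270 were on the array, 168 were tested, and 83 were above background on no array. In the limma test 6 of the 168 rose (3.57%, against 1.36% of all tested genes) and 0 fell, and with the replicate block 14 rose (8.33%, against 3.19%). All TSA arrays were above all DMSO arrays in 61 genes (36.3%, against 16.4%), and the median difference was 0.42, against 0.08. The mean was higher with TSA in 78.6% of the 168 and in 58.1% of all tested genes. Leaving out any 1 array other than TSA replicate 2 left 0 of the 168 past the threshold, and leaving out that array gave 21. The genes that passed only with the replicate block, named after their values were seen, were Lyzl4, Zpbp2 and Spaca1 of the acrosome, Taf7l of the regulators, Tcp11 of the flagellum, H1f6 of chromatin, Cyct of energy metabolism and Rhox13 of the cancer testis antigens. Spaca1 was above background on 2 TSA arrays and 1 DMSO array only, so its call rests in part on values not above background. The lists were written with earlier results of these arrays known, so these shares are a description.

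Each count by role or name below stands against the 1.36% of all tested genes that rose, or 3.19% with the replicate block. The lists are short, and no count was tested against these shares. By role, the surface proteins had 1 of 13 genes that rose (7.69%), the partner of Tex101. Ly6k, which forms a complex with Tex101 on germ cells, had levels of -2.48, -2.53 and -2.79 in TSA samples and -4.46, -4.88 and -5.15 in DMSO samples. All 6 arrays measured it, and it rose by 2.23 ± 0.25, or 4.69-fold (limma adjusted p = 0.0265). The median over the 13 was 0.14, near that of all tested genes.

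Of 16 acrosome and egg-binding genes 0 passed and 3 did with the replicate block, with a median of 0.51. The smallest adjusted p belonged to Zpbp2, which binds the egg's coat, at 1.42 ± 0.24 (limma adjusted p = 0.0577, and 0.0498 with the block). Of 6 testis proteases and inhibitors 0 passed, and Prss50, a testis protease, came nearest at 1.72 ± 0.33 (limma adjusted p = 0.0788). Both had all TSA arrays above all DMSO arrays. The protease list had a median of 0.15, and 2 of its 6 genes (33.3%, against 16.4% of all tested genes) had separate groups in this way.

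Energy metabolism had 2 of 20 genes that rose, 3 with the replicate block (Cyct, block adjusted p = 0.0407 in limma), and a median of 0.73, the highest of the role lists. Pdha2, the intronless germ-cell copy of the pyruvate dehydrogenase subunit, had levels of -4.02, -4.21 and -4.46 in TSA samples and -5.64, -5.74 and -5.57 in DMSO samples, with 2 of 3 DMSO arrays above background, and rose by 1.42 ± 0.21 (limma adjusted p = 0.0419). Slc2a5, a fructose transporter found on sperm, had -1.12, -0.94 and -1.44 in TSA samples and -2.77, -2.77 and -2.57 in DMSO samples and rose by 1.53 ± 0.22 (limma adjusted p = 0.0389). Neither group of levels overlapped the other in these genes.

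Of 12 regulators of spermatid transcription 1 rose, and 2 with the replicate block (Taf7l, block adjusted p = 0.0498 in limma). The 1 was Gtf2a1l, the germ-cell form of a subunit of the general factor TFIIA. Its levels were -2.01, -2.26 and -2.10 in TSA samples and -4.01, -4.06 and -3.59 in DMSO samples, a rise of 1.76 ± 0.22 (limma adjusted p = 0.0317). Of 16 genes of sperm chromatin 0 passed and 1 did with the replicate block, with a median of 0.31. Brdt, a bromodomain protein that reads acetylated histones in spermatids and stands in both of these lists, differed by 1.77 ± 0.31 (limma adjusted p = 0.0625). It was above background on 3 TSA arrays and 2 DMSO arrays. Tnp2, a transition protein that lies beside Prm2, differed by 0.35 ± 0.35.

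Of 29 cancer testis antigens, genes of the germ line that tumours also use, 2 rose, 3 did with the replicate block (Rhox13, block adjusted p = 0.0361 in limma), and the median was 0.70. Mageb4, an X-linked gene of the MAGE family, had levels of -4.52, -4.55 and -4.20 in TSA samples and -7.43, -7.11 and -6.31 in DMSO samples, with 1 of 3 DMSO arrays above background, and rose by 2.53 ± 0.33 (limma adjusted p = 0.0333). Tsga8 had -4.01, -4.18 and -4.24 in TSA samples and -5.90, -5.37 and -5.71 in DMSO samples, with 2 of 3 DMSO arrays above background, and rose by 1.52 ± 0.22 (limma adjusted p = 0.0417). In 14 of the 29 (48.3%, against 16.4% of all tested genes) all TSA arrays lay above all DMSO arrays. After normexp correction the differences were 0.40 for Mageb4, 0.23 for Tsga8, 0.28 for Pdha2 and 0.86 for Ly6k, and none of these passed. Of 8 other settings, among them slide 2 left out, Gtf2a1l passed in 7, Ly6k in 6, Slc2a5, Mageb4 and Tsga8 in 3 each and Pdha2 in 2.

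The flagellum list had 0 of 30 genes past the test, 1 with the replicate block (Tcp11, at 1.56 ± 0.41, block adjusted p = 0.0425 in limma), and a median of 0.35. Catsperz, a subunit of the sperm calcium channel, came nearest at 1.64 ± 0.31 (limma adjusted p = 0.0785). Spermatogonia and germ cell identity had 0 of 16 and a median of 0.54, with Stra8, the switch into meiosis, at 1.47 ± 0.35 (limma adjusted p = 0.137). Testis chaperones had 0 of 14 and a median of 0.08, that of all tested genes, with Dnajb3 at 1.01 ± 0.22 (limma adjusted p = 0.0992). By name alone, 1 of 19 Tex genes rose, Tex19.1, at 1.77 ± 0.25 (limma adjusted p = 0.0412), with a median of 0.20, and 0 of 18 Spata genes did, with a median of 0.21 and Spata48 nearest at 1.06 ± 0.27 (limma adjusted p = 0.161).

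Markers of somatic cells of the gonad were also followed. Of 15 on the array 12 were tested, 0 passed (1.36% of all tested genes passed as higher), and the median was 0.25. Above background on all 6 arrays were 8 of the 12, Cyp17a1, Sox9, Wt1 and Star among them, while Fshr and Lhcgr were so on no array. Cyp11a1, the first enzyme of steroid synthesis, was above background on 3 TSA and 0 DMSO arrays. On the processed signal its TSA mean was 2.31-fold above the mean of the lowest levels that the DMSO arrays placed well above background. As for Prss39, this is no strict bound. Cyp11a1 met the filter of the test through TSA arrays only. Its p-values (limma adjusted p = 0.0806, and 0.0438 with the replicate block) thus rest on DMSO values not above background, and nothing is read from them. The mean level over the list was -3.07 to -2.39 in TSA samples and -3.33 to -2.85 in DMSO samples, so the groups overlapped. The part of such cells in the values above was not tested.

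**Figure D4:**
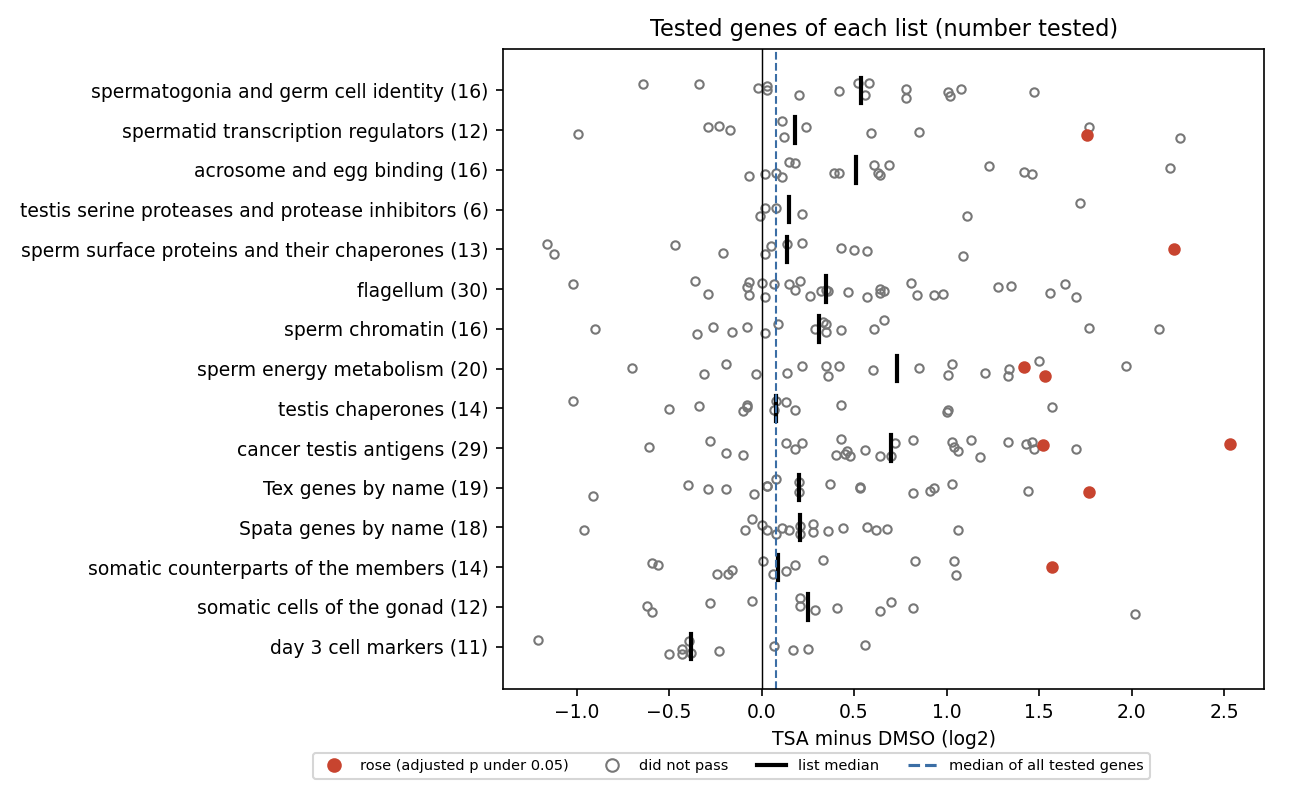
Differences, TSA minus DMSO (log2, one axis), of the tested genes of each role list, the somatic counterparts and the gonad and day 3 markers, with list medians and a line at the 0.08 of all tested genes. Energy metabolism (0.73) and cancer testis antigens (0.70) have the highest medians among the role lists, and day 3 markers the lowest, at -0.38.

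Nearest genes with a probe were set beside each of the 10. Lypd3, which neighbours Tex101 on chromosome 7 and like it belongs to the Ly6 and uPAR family, had levels of -0.18, -0.26 and -0.96 in TSA samples and -2.70, -2.97 and -3.11 in DMSO samples. It rose by 2.46 ± 0.28 (limma adjusted p = 0.0265), and Lypd10 on the other side was above background on no array. Hopx, a homeodomain-only protein beside Spink2 on chromosome 5, had 0.25, 0.07 and 0.18 in TSA samples and -1.01, -1.28 and -0.95 in DMSO samples. All TSA arrays lay above all DMSO arrays, and it differed by 1.25 ± 0.20 (limma adjusted p = 0.0513, and 0.0448 with the replicate block). On the other side of Spink2, Rest, a repressor of neuronal genes, differed by -0.08 ± 0.26 (limma adjusted p = 0.907).

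Beside Prss39, Imp4 was above background on no array and Cfc1 differed by -0.33 ± 0.66. The neighbours of Hspa2, Zbtb1 and Ppp1r36, differed by -0.79 ± 0.58 and 0.62 ± 0.52, and Tsg101 beside Ldhc by -0.10 ± 0.24. Around the genes with no signal, Klf10 beside Odf1 differed by 0.14 ± 0.30, Chek1 beside Acrv1 by -0.91 ± 0.42 and AY036118 beside Pgk2 by 0.41 ± 0.43, while Pate14 and Crisp3 were above background on no array. Rmi2 beside Prm1 differed by -0.02 ± 0.22, and none of these neighbours that were tested passed. Gene order came from the RefSeq table of another build than the array's annotation.

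**Figure D5:**
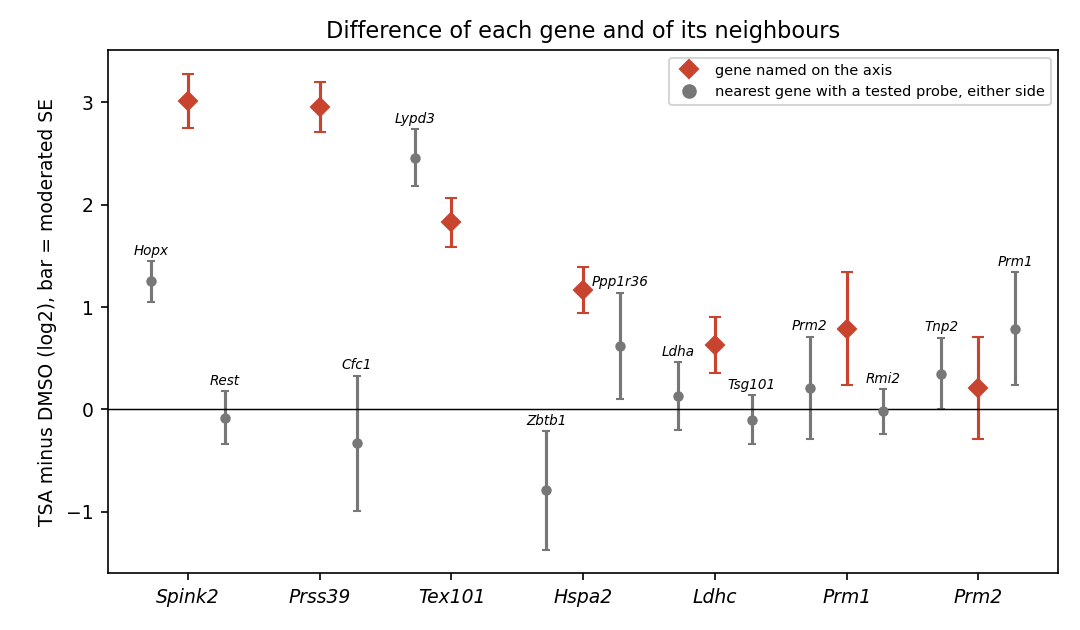
Difference, TSA minus DMSO (log2, moderated SE), of each tested gene of the 10 and of its nearest neighbours with a tested probe. Lypd3 beside Tex101 (2.46) and Hopx beside Spink2 (1.25) differ in the same direction as the gene they neighbour, and Rest on the other side of Spink2 lies at -0.08.

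Across the 6 arrays, the brightest probes of Spink2 and Prss39 correlated at 0.99, Tex101 and Hspa2 at 0.98, and Tex101 and Prss39 at 0.97. Ldhc correlated at 0.73 to 0.80 with these 4 genes and Prm2 at 0.06 to 0.40, while Prm1 and Prm2 correlated with each other at 0.70. The points are the same 6 arrays and carry the treatment difference, so the values only restate which genes separated the groups. The genes most like Tex101 were Tbx21, a T-box factor (0.999), Tmem45b (0.998) and the histamine receptor Hrh1 (0.998), and 541 genes exceeded 0.95. Those most like Spink2 were its neighbour Hopx (0.999), Pramel37 (0.998) and the factor Nfic (0.997), and 308 genes exceeded 0.95.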

How the data were processed

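Total RNA of 6 samples, 3 TSA and 3 DMSO, was amplified, labelled with Cy3 and hybridised to 1 Agilent array each, per the labels' protocols. The deposited files hold intensity values from Agilent Feature Extraction (version 10.7, per the submitters' processing notes), with a processed signal corrected for background within the array. The series table deposited with them has the authors' own log2 values, whose normalization is not given in the sources used here, and served as an alternative. The median correlation of its columns with log2 of the processed signal was 0.986.

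Control and outlier spots (57 to 84 of 43379 per array) were left out and 0 spots were saturated. From log2 of the processed signal, its 75th percentile on that array was taken off, and spots of a probe were averaged. Tested were the 28158 of 41174 probes that any 3 or more arrays showed well above background. RefSeq identifiers gave 27484 probes 1 gene, 0 several and 13690 none, and a gene stands by whichever tested probe had the highest mean. Between 61.1% and 72.3% of spots were well above background, and the number of arrays limits the precision.

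TSA was tested against DMSO with limma 3.58.1 run in R 4.3.3 (two-sided, moderated by eBayes after lmFit), with treatment as the only term, p-values adjusted by Benjamini-Hochberg across the tested probes and called under 0.05. The fit was tested on simulated data. The p-values rest on the spread between samples that the labels call independent experiments. Deviations from group means correlated at 0.484, 0.614 and 0.585 between arrays of the same replicate number, which is the slide, and at -0.568 to 0.0916 otherwise, which pairs the samples by number, and blocked values stand beside a result whose call they change. Named beside the 10 genes are, of each list, the genes past the threshold or the one with the smallest adjusted p, the nearest neighbours with a probe (1 is not reported here), and the 3 genes most like Tex101 and Spink2. The genes, lists, tests and alternatives were chosen with earlier results of these data known. The alternatives were normexp correction (offset 50, on median signals, as the files hold no mean signal), other normalizations and filters, the authors' table, moderation, the replicate block and arrays left out. Files were read in Python 3.11.15 (pandas 2.3.3, numpy 2.4.6) and figures drawn with matplotlib 3.10.9.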

Additional observations from a re-analysis of the deposited data

How the results depend on the processing

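With the settings of the report, 259 probes were higher and 10 lower with TSA, with 6 other sperm and testis genes higher and 3 of the 10 chosen genes past the threshold. Probes higher were 127 with normexp correction, 148 with quantile normalization, 137 with median centring, 142 in the authors' deposited table, and 58 with no filter on dim probes, where 0 were lower. The other sperm and testis genes that rose were 1 with normexp, 3 each with quantile normalization, median centring and trend with robust moderation, 2 in the authors' table and 0 with no filter (3983 probes had an unadjusted p under 0.05). With the mean over a gene's probes 14 rose, but that fit adjusted p over genes and so over fewer tests. Of the chosen genes 1, Spink2, was past the threshold with normexp and in the authors' table. With the replicate block 617 probes were higher and 41 lower and 14 other sperm and testis genes rose. The block also took Hopx and Cyp11a1 past the threshold, the latter on DMSO values not above background. No blocked values are given for the genes named only for likeness. With 1 array left out, probes higher ranged over 0 to 575, probes lower over 0 to 54, other genes that rose over 0 to 21 and chosen genes past the threshold over 0 to 4, with the high values from leaving out TSA replicate 2. The other 5 such fits gave 0, though in limma the unadjusted p was under 0.05 for 2019 to 3327 probes, and the lowest adjusted p was 0.0586 to 0.162, and a fit with 1 array fewer has fewer degrees of freedom. Without both arrays of slide 2 all 4 counts were 0, with an unadjusted p under 0.05 for 4995 probes and 0.0509 as the lowest adjusted p. For the chosen genes and the 8 other genes that were refitted, no alternative reversed a difference that was past the threshold. Over the other settings the difference was 0.35 to 2.95 for Prss39 and 0.40 to 2.53 for Mageb4, both not above background on some arrays. The cause of these changes was not tested.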
